A study of Mus musculus with 7 samples.

Results

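The nuclear-encoded subunits of oxidative phosphorylation were examined in naive CD4 T cells, helper T cells that have not met their antigen. Members were taken by gene name from the deposited expression table. They are the Nduf genes of the A, B, C, S and V series (complex I), Sdha to Sdhd (complex II), the Uqcr genes (complex III), the Cox4 to Cox8 genes (complex IV), the Atp5 genes (complex V, the ATP synthase) and Cycs (cytochrome c). Names with "-ps", which mark pseudogenes, were left out. The rule gave 85 of 34745 genes, with 37 in complex I, 4 in complex II, 8 in complex III, 18 in complex IV, 17 in complex V and 1 for cytochrome c. The rule reads names only, so a few members are not structural subunits of the complex their name gives. Atp5sl is now known as Dmac2, an assembly factor of complex I, Atp5s as the coupling factor B gene Dmac2l, Cox7a2l as a factor that joins complexes III and IV into supercomplexes, and Ndufa4 as a subunit found in complex IV.

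Each of the 7 libraries is 1 mouse, a C57BL/6 male of 8 weeks, whose spleen gave the cells. The wild-type group (WT) had 3 mice, and the other group had 4 mice heterozygous for a gain-of-function (GOF) form of PIK3CD, the p110 delta catalytic subunit of phosphoinositide 3-kinase, a lipid kinase that acts below the T cell receptor. Controls were littermates, no treatment was given, and the cells were taken by negative selection with a Stemcell Technologies kit, so any cell the antibodies missed stayed in the sample. The labels do not give the amino acid change, the promoter or the cell types that carry the allele.

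Complexes I, III and IV pass electrons along the inner mitochondrial membrane and pump protons, complex II feeds in electrons from succinate, cytochrome c carries electrons from complex III to complex IV, and the ATP synthase uses the proton gradient to make ATP. Most subunits are encoded in the nucleus, and a small set is encoded in mitochondrial DNA, so the complexes need both genomes. Naive T cells are quiescent and depend largely on oxidative phosphorylation, while activated T cells take up more glucose and enlarge their mitochondria.

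Libraries held 14497957 to 16293539 counts. Cd3e and Cd4, which define the cells, were high in all libraries, with means of 279 and 152 FPKM in WT and 365 and 223 FPKM in GOF. Ccr7, a homing receptor of naive T cells, had means of 371 FPKM in WT and 322 FPKM in GOF. Of 8 T cell markers 2 rose and 3 fell. Markers of other cells differed with genotype. The 12 myeloid markers summed to 49.0 to 86.9 CPM (counts per 1000000) in WT and 150.5 to 507 CPM in GOF, and 10 of the 12 were higher in GOF. All 8 neutrophil markers were higher, with sums of 0.551 to 7.26 CPM against 61.8 to 202 CPM, and Camp, one of them, was at 0 in all WT libraries. For B cells 4 of 8 markers were higher (27.2 to 85.9 against 82.7 to 164 CPM), for NK and CD8 T cells 6 of 8 (53.4 to 71.9 against 92.1 to 129 CPM), and for red blood cells and platelets 4 of 7 tested (6.61 to 20.3 against 18.4 to 69.8 CPM). The CD8 genes Cd8a and Cd8b1 were not among those 6. Their means were 1.26 and 16.2 FPKM in WT and 0.731 and 13.85 FPKM in GOF, and neither passed the test. GOF replicates 1 and 3 carried the most of each of these lists. Their part in the results was not tested. Counts of the members and of the other lists that passed the test are given below also without these 2 libraries.

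Levels are FPKM (fragments per kilobase of gene length per 1000000 counts) on totals scaled by TMM, a factor per library that evens out composition. Differences are log2 fold changes of GOF against WT from the edgeR quasi-likelihood test, and a gene is said to have risen or fallen where its p, adjusted by Benjamini-Hochberg over all genes tested, was under 0.05. Of the 85 members, 77 passed the filter on low counts. Among all 12668 genes tested, 16.8% were higher in GOF and 14.5% lower. Among the 77 members, 12 (15.6%) rose, 2 (2.60%) fell and 63 did not pass the test, so 14 passed in either direction, against 31.3% of all genes. The share that rose was thus near that of all genes, and the share that fell was below it, with no test of that difference. With total counts in place of TMM, 2527 genes were higher and 1428 lower, against 2130 and 1838 with TMM, and 19 members rose and 2 fell. Changes were small. The median log2 fold change of the tested members was 0.12 against 0.01 for all genes, the range was -0.55 to 0.88, and 66 of 77 were within 0.5 of 0. For 58 of 77 members the log2 fold change was above 0. Counts are per bulk sample, where fewer cells of a type and less RNA per cell cannot be told apart.

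**Figure D1:**
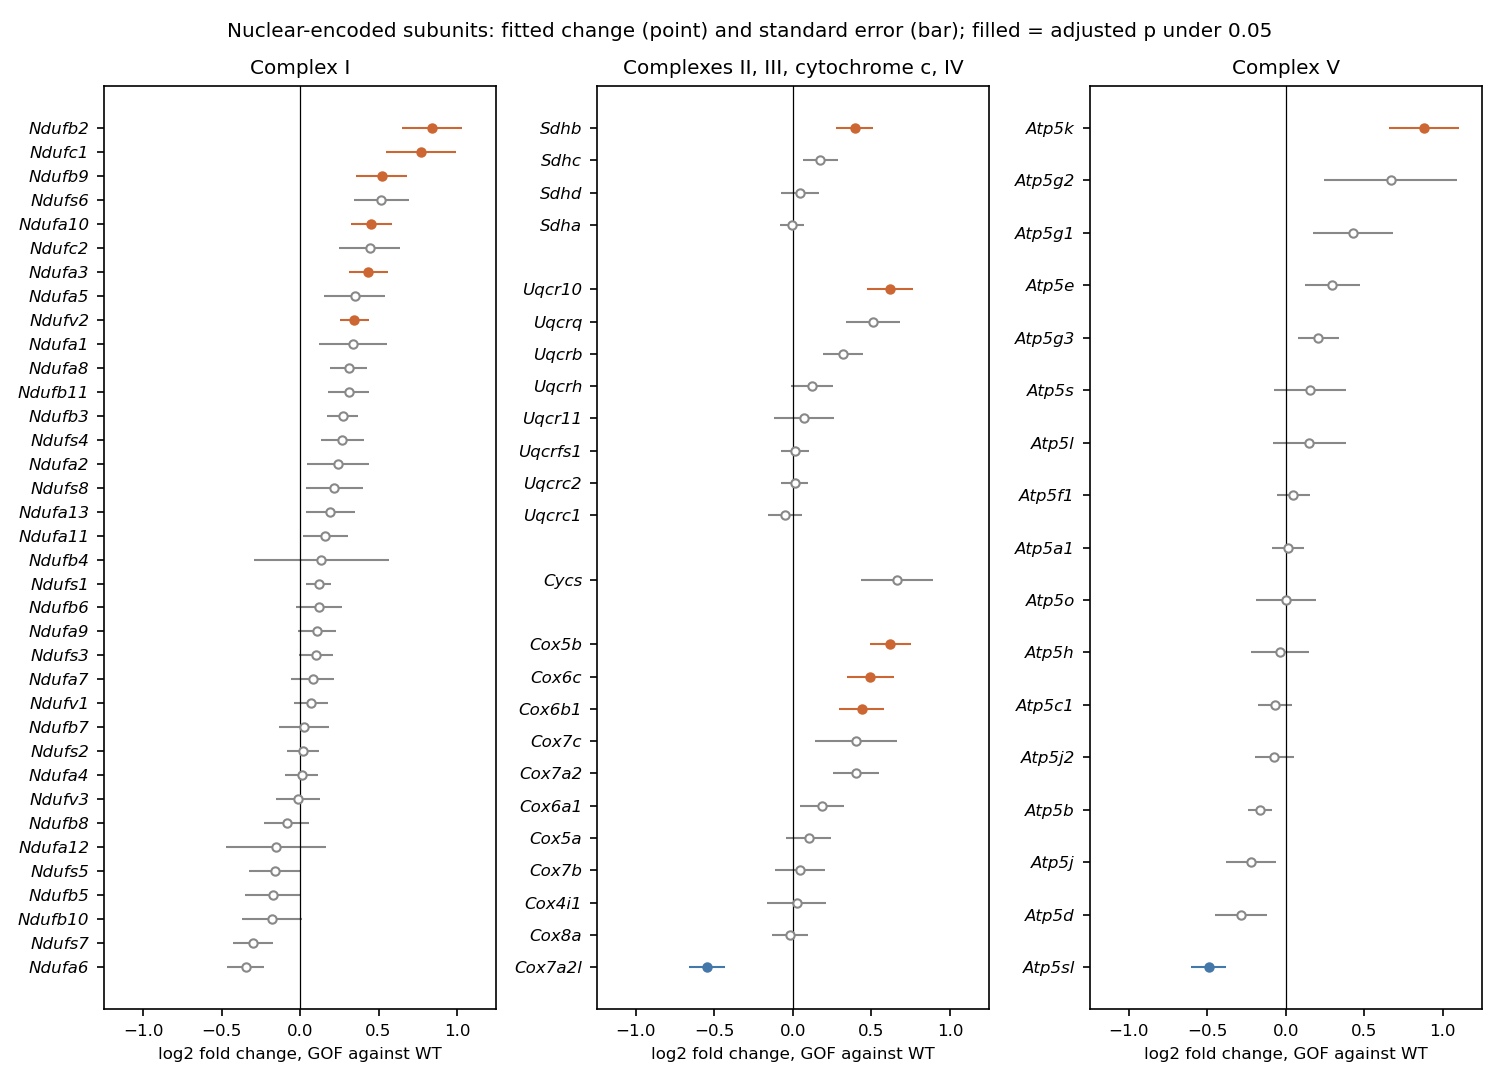
Fitted log2 fold change of GOF against WT (horizontal axis) for each of the 77 tested members, in panels by the complex of their name, with the point as the estimate, the bar as its standard error and filled points for adjusted p under 0.05 (edgeR). Of the filled points 12 lie above 0 and 2, Cox7a2l and Atp5sl, below it.

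By complex, the counts and medians were these, beside 16.8% higher and 14.5% lower among all genes tested. In complex I 6 of 36 tested members rose (16.7%) and none of 36 fell, with a median log2 fold change of 0.15. The 7 core subunits, most of which carry redox centers, had 1 that rose and a median of 0.10, and the 29 tested accessory subunits had 5 that rose and a median of 0.19. In complex II 1 of 4 rose (median 0.11), in complex III 1 of 8 (median 0.10), in complex IV 3 of 11 rose and 1 fell (median 0.18), and in complex V 1 of 17 rose and 1 fell (median 0.01). Cycs did not pass the test. Without GOF replicates 1 and 3, 2 members rose (Ndufb2 and Cox5b) and 2 fell (Cox7a2l and Atp5sl), with a median of 0.06. Without GOF replicates 2 and 4, 8 rose and 1 fell, with a median of 0.16.

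Promoters are shown for 4 members. Cox7a2l is the tested member with the highest level and the largest fall, and Atp5k the one with the largest rise. Sdhb and Cox6b1 rose and hold an ETS family motif, but their calls were among the weaker ones (edgeR adjusted p = 0.0353 and 0.0440). Each is the RefSeq window of GRCm38.p6, from 250 bases before to 50 after the annotated start, written 5′ to 3′ on the gene's strand, with capitals for motif matches. The windows are chr17:83514284-83514583 (minus strand) for Cox7a2l, chr5:108434350-108434649 (minus) for Atp5k, chr4:140961021-140961320 (plus) for Sdhb and chr7:30626065-30626364 (minus) for Cox6b1.
Cox7a2l: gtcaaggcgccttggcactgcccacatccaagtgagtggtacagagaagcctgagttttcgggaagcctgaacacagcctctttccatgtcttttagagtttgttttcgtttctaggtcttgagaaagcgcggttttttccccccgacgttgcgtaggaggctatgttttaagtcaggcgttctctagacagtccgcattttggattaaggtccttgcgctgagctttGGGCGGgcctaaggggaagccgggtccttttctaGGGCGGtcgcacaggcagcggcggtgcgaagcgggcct
Atp5k: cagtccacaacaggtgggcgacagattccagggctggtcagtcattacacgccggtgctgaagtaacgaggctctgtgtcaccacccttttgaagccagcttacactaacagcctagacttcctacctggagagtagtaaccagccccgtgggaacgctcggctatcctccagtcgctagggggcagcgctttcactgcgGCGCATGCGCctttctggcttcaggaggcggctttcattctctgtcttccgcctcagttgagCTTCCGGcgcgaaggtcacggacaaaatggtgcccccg
Sdhb: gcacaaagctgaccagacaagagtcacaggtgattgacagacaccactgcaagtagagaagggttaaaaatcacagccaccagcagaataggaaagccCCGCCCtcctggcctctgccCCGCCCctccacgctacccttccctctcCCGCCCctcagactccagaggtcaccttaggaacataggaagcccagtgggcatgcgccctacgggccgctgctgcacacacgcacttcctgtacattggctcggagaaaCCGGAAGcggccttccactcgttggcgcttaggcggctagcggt
Cox6b1: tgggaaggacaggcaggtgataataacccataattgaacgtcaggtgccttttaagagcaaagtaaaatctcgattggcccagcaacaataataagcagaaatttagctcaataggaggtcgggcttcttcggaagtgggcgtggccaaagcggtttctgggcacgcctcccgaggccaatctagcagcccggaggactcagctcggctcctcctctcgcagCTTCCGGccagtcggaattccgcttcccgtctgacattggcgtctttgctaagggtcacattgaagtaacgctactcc
In Cox7a2l the capitals mark 2 GGGCGG boxes of the Sp1 family. In Atp5k they mark an NRF1 motif, whose first base lies at position -50 from the start, and an ETS family motif on the other strand. In Sdhb they mark an ETS family motif and 3 Sp1 boxes on the other strand, and in Cox6b1 an ETS family motif on the other strand at position -28.

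NRF1 and GABP, an ETS family factor, are textbook activators of respiratory chain genes, and YY1 is another. The letters searched on both strands were GCGCA, any base and then GCGC for NRF1, CCGGAAG for the ETS family, AAGATGGCG for YY1, GGGCGG for the Sp1 family and TATAAA for the TATA box. RefSeq windows were matched by symbol for 70 of 85 members, giving 76 windows, and were compared with all 32851 windows of the same length. The NRF1 letters were in 23.7% of the members' windows and 4.60% of all windows, the ETS letters in 21.1% and 8.86%, and the YY1 letters in 11.8% and 1.40%. The Sp1 box was in 39.5% and 35.7%, and the TATA box in 10.5% and 13.6%. Of the 12 members that rose or fell and had a window, 1 held the NRF1 letters (Atp5k), 3 the ETS letters (Atp5k, Cox6b1 and Sdhb), 2 the YY1 letters (Atp5sl and Ndufc1), 5 the Sp1 box and 1 the TATA box. The windows of Cox5b, Ndufb2 and Uqcr10, which also rose, held none of the searched letters. A match of letters does not show that a factor binds.

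In complex I, the NADH dehydrogenase, the 6 members that rose were 1 core subunit and 5 accessory ones. Ndufv2, a core subunit of the NADH-binding module that holds an iron-sulfur cluster (mm10 chromosome 17, 66078795 to 66101559), was at 21.7, 20.3 and 19.0 FPKM in the WT libraries and at 25.1, 25.5, 24.9 and 27.6 FPKM in the GOF libraries. All GOF values lay above all WT values. Its log2 fold change was 0.34 (SE 0.09, edgeR adjusted p = 0.0205). Ndufb2, an accessory subunit of the membrane arm (chromosome 6, 39592574 to 39603382), was among the lowest members, at 1.30, 1.27 and 1.07 FPKM in WT and 1.80, 1.89, 2.21 and 2.78 FPKM in GOF, with no overlap. It rose by 0.84 on the log2 scale (SE 0.19, edgeR adjusted p = 0.00991), the largest change in complex I. Ndufc1, a small membrane arm subunit, was at 4.03, 2.43 and 4.29 FPKM in WT and 6.17, 5.36, 5.86 and 7.06 FPKM in GOF, again with no overlap, with a fitted log2 difference of 0.77 (SE 0.22, edgeR adjusted p = 0.0272). Ndufb9, a membrane arm subunit of the LYR family, was at 61.5, 42.2 and 49.2 FPKM in WT and 78.0, 58.5, 82.4 and 73.3 FPKM in GOF. GOF replicate 2 fell below WT replicate 1, so the groups overlapped, and the log2 fold change was 0.52 (SE 0.16, edgeR adjusted p = 0.0371).

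Ndufa10 and Ndufa3, accessory subunits, rose by 0.45 (SE 0.13) and 0.43 (SE 0.12) on the log2 scale (edgeR adjusted p = 0.0260 and 0.0261), with no overlap of the groups for either. Ndufa10 was at 16.9, 12.5 and 15.00 FPKM in WT and 20.8, 17.8, 23.0 and 19.4 FPKM in GOF. Ndufa3 was at 19.7, 16.1 and 16.1 FPKM in WT and 23.9, 20.00, 24.0 and 25.6 FPKM in GOF. Both had their lowest GOF value in replicate 2 and their highest WT value in replicate 1. Several of these calls were close to the threshold. Leaving out GOF replicate 1, 3 or 4, or WT replicate 2 or 3, ended the calls of Ndufa10, Ndufa3 and Ndufb9, whose log2 fold changes then lay between 0.34 and 0.47, 0.38 and 0.43, and 0.40 and 0.51, and whose adjusted p over all alternatives reached 0.214, 0.174 and 0.270. Removal of a gene length trend also ended the call of Ndufb9 and lowered its log2 fold change from 0.52 to 0.26 (limma adjusted p = 0.111). Leaving out GOF replicate 1, 3 or 4, or WT replicate 2, ended that of Ndufc1 (to 0.122), and leaving out GOF replicate 4 or WT replicate 3 ended that of Ndufv2 (to 0.0960). Ndufb2 kept its call without each library in turn, but not after quantile normalization (log2 fold change 0.37, limma adjusted p = 0.0728, the highest over its alternatives, which began at 0.000590), and it was not tested where a mean FPKM of at least 5 was asked for.

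The member of complex I with the highest level was Ndufa6, an accessory LYR subunit of the matrix arm, at 202, 161.3 and 185 FPKM in WT and 144, 122, 160.6 and 148 FPKM in GOF. No GOF library reached the lowest WT library, and the log2 fold change was -0.34 with an SE of 0.12, which did not pass the test (edgeR adjusted p = 0.0525). Over the alternatives its adjusted p ran from 0.000316 to 0.209, and it was under the threshold in 6, among them DESeq2 (0.0377), and without GOF replicate 3 or WT replicate 2 in edgeR (0.0499 and 0.0294). Other members whose groups did not overlap but that did not pass the test, chosen after their values were seen, were Ndufs6, a subunit at the NADH-binding module, with 17.0 ± 2.13 FPKM (SD, n = 3) in WT and 24.4 ± 4.71 FPKM (SD, n = 4) in GOF, Ndufs1, the largest core subunit, Ndufb3 and, with lower GOF values, Ndufs7, a core subunit next to the quinone site, with 21.6 ± 3.22 and 17.6 ± 1.75 FPKM. Over all 77 members the groups did not overlap for 15 with GOF higher and 5 with GOF lower, which is 20 members, while over all genes tested this held for 21.5% and 18.2%, or 39.8% in either direction.

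In complex II, succinate dehydrogenase, all members are named. Sdhb, the iron-sulfur subunit (mm10 chromosome 4, 140961203 to 140979193), was at 25.1, 19.4 and 23.8 FPKM in WT and 31.7, 26.0, 31.4 and 30.2 FPKM in GOF. The lowest GOF library was above the highest WT library, and it rose by 0.39 (SE 0.12, edgeR adjusted p = 0.0353). The call was lost without GOF replicate 1, 3 or 4 or without WT replicate 2 or 3 (adjusted p over all alternatives 0.0141 to 0.252). Sdha, the flavoprotein that oxidizes succinate, was at 47.6, 47.4 and 52.8 FPKM in WT and 51.2, 47.8, 49.8 and 47.9 FPKM in GOF, a log2 difference of 0.00 (SE 0.08). The membrane anchors Sdhc and Sdhd had means of 16.1 and 51.7 FPKM in WT and 18.2 and 53.4 FPKM in GOF, log2 fold changes of 0.17 (SE 0.11) and 0.05 (SE 0.12) that did not pass the test. Groups overlapped for these 3 genes. Of the assembly factors of complex II, 2 of 4 rose, against 16.8% of all genes tested. Sdhaf1, needed for the iron-sulfur clusters of Sdhb, was at 8.89, 9.21 and 7.91 FPKM in WT and 17.96, 13.0, 20.1 and 16.6 FPKM in GOF, with a fitted log2 difference of 0.96 (SE 0.16, edgeR adjusted p = 0.00190). Sdhaf4, which helps join Sdha to Sdhb, rose from 4.87 ± 0.633 FPKM (SD, n = 3) to 7.81 ± 1.02 FPKM (SD, n = 4), by 0.68 on the log2 scale (edgeR adjusted p = 0.0255). Both had no overlap between the groups.

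In complex III, which passes electrons from ubiquinol to cytochrome c, Uqcr10 rose. This small subunit (mm10 chromosome 11, 4701973 to 4704342) was at 33.0, 23.1 and 26.0 FPKM in WT and 42.3, 35.5, 47.2 and 43.3 FPKM in GOF, with no overlap and a log2 difference of 0.62 (SE 0.15, edgeR adjusted p = 0.0125). Without WT replicate 3 its call was lost, and over all alternatives its adjusted p ran from 0.000969 to 0.115. Uqcrh, the hinge subunit and the member with the highest level in this complex, was at 90.9, 65.7 and 62.3 FPKM in WT and 82.9, 71.9, 82.9 and 80.5 FPKM in GOF, which overlap, and did not pass the test (log2 fold change 0.12, SE 0.13). Uqcrq, named after its values were seen, was at 13.7 ± 2.70 FPKM (SD, n = 3) in WT and 19.5 ± 3.44 FPKM (SD, n = 4) in GOF without overlap (edgeR adjusted p = 0.0522). The catalytic Rieske protein Uqcrfs1, also named afterwards, had means of 63.4 and 64.0 FPKM. Of the 6 assembly factors, 33.3% rose and 16.7% fell, against 16.8% and 14.5% of all genes tested. Uqcc2 and Lyrm7 rose by 0.86 and 0.89 and Uqcc3 fell by 0.61 on the log2 scale (edgeR adjusted p = 0.00291, 0.0446 and 0.0208). Uqcc3 was at 84.1, 68.2 and 77.3 FPKM in WT and 52.9, 36.6, 60.9 and 50.1 FPKM in GOF, so its groups did not overlap.

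**Figure D2:**
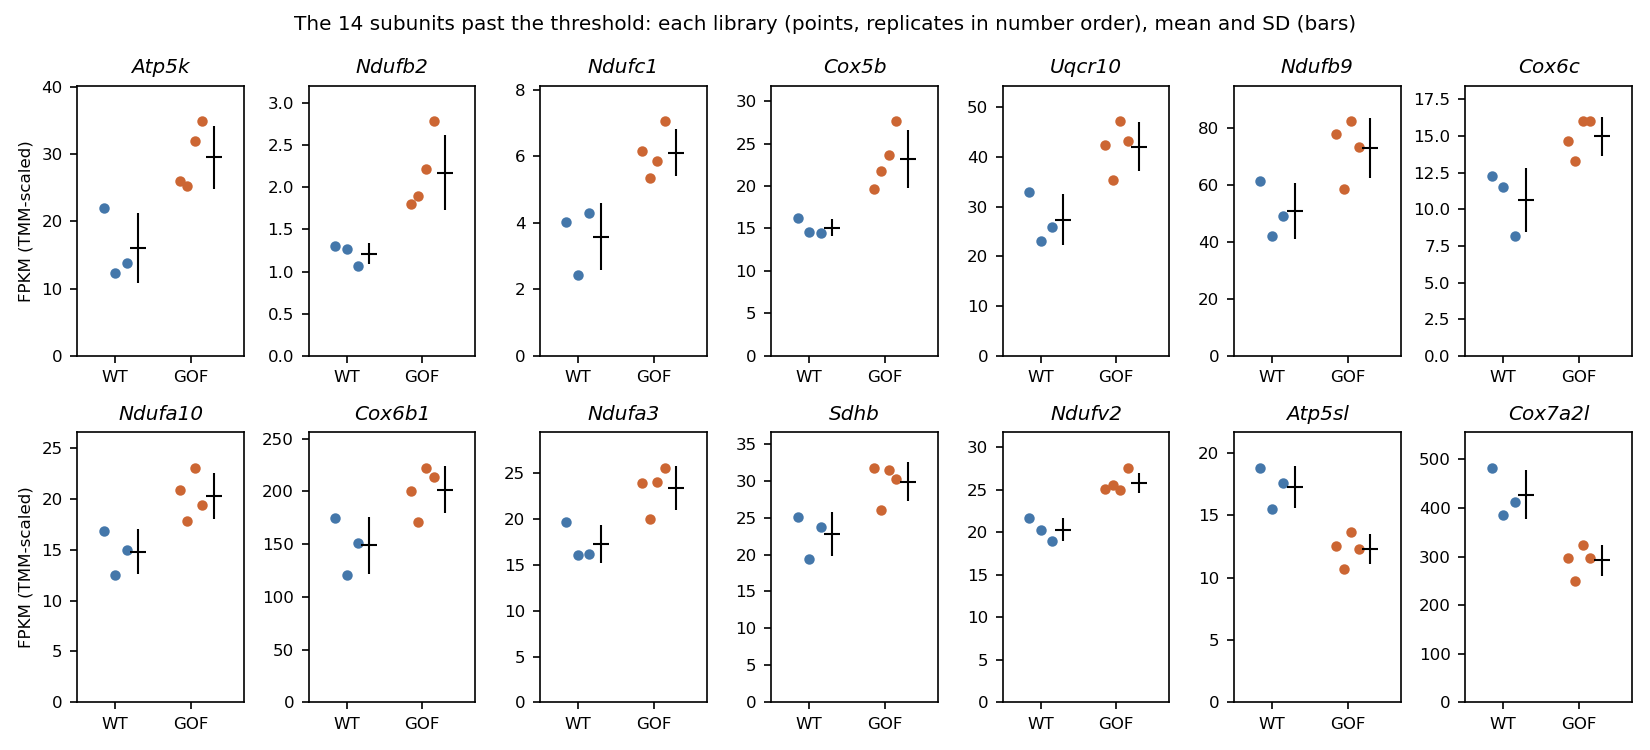
FPKM on TMM-scaled totals (vertical axis, from 0) of the 14 members past the threshold in each WT and GOF library, with points for the libraries and bars for the mean and SD. For 10 of the 12 that rose and both that fell, the groups do not overlap. The exceptions are Cox6b1 and Ndufb9.

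In complex IV, cytochrome c oxidase, 3 members rose and 1 fell, and the one that fell had the smallest p. Cox7a2l (mm10 chromosome 17, 83501919 to 83514333), also known as SCAF1, the supercomplex assembly factor, was at 483, 385 and 413 FPKM in WT and 298, 249, 325 and 297 FPKM in GOF. Each GOF library was below each WT library. It fell by 0.55 on the log2 scale (SE 0.11, edgeR adjusted p = 0.00625), from 427 ± 50.5 FPKM (SD, n = 3) to 292 ± 31.6 FPKM (SD, n = 4), and in both groups it was the member with the highest mean. The call held in all 21 alternatives, with adjusted p from 0.000121 to 0.0409. Its paralog Cox7a2, the general isoform of the COX7A subunit, was at 46.2, 36.8 and 36.0 FPKM in WT and 51.0, 43.0, 58.2 and 57.4 FPKM in GOF. These groups overlapped, and its log2 fold change of 0.40 (SE 0.14) did not pass the test (edgeR adjusted p = 0.0623). It passed in 8 alternatives (adjusted p over all of them 0.0239 to 0.29), among them edgeR without GOF replicate 2 (0.0279) or without WT replicate 1 (0.0346). Per Cox7a2 FPKM, Cox7a2l was at 10.46, 10.46 and 11.47 in WT and 5.84, 5.79, 5.58 and 5.17 in GOF, means of 10.8 ± 0.582 (SD, n = 3) and 5.59 ± 0.303 (SD, n = 4). These are RNA levels only. Protein, the Cox7a2l allele of these mice and the assembly of supercomplexes were not examined here.

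Cox5b, the subunit that binds zinc on the matrix side (mm10 chromosome 1, 36691484 to 36693681), was at 16.3, 14.6 and 14.4 FPKM in WT and 19.6, 21.8, 23.7 and 27.6 FPKM in GOF. No GOF library was as low as any WT library. It rose by 0.62 (SE 0.13, edgeR adjusted p = 0.00675), and the call held in all 21 alternatives, with adjusted p from 0.000146 to 0.0327. Cox6c, a small membrane subunit, was at 12.2, 11.5 and 8.18 FPKM in WT and 14.6, 13.3, 16.0 and 16.0 FPKM in GOF, with no overlap, and rose by 0.49 (SE 0.15, edgeR adjusted p = 0.0322). Cox6b1, which faces the intermembrane space where 2 units of the enzyme meet, was at 175, 121 and 151 FPKM in WT and 199.9, 171, 222 and 214 FPKM in GOF. GOF replicate 2 lay just below WT replicate 1, so the groups overlapped, and the log2 fold change was 0.44 (SE 0.14, edgeR adjusted p = 0.0440). Leaving out GOF replicate 1, 3 or 4 or WT replicate 3 ended the calls of Cox6c and Cox6b1, and leaving out WT replicate 2 ended that of Cox6b1. Over all alternatives the adjusted p reached 0.161 for Cox6c and 0.348 for Cox6b1. The latter value came from removal of a gene length trend in limma, which lowered the log2 fold change of Cox6b1 from 0.44 to 0.13.

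Isoforms that belong to muscle, lung or testis were near or at 0. Cox7b2, Cox8b and Cox8c had 0 counts in all libraries, and Cox4i2 had 2 counts, Cox7a1 10 counts, Cox6a2 16 counts and Cox6b2 58 counts over the 7 libraries. None of these passed the filter on low counts, nor did Ndufa4l2, a relative of Ndufa4 induced by low oxygen, with means of 0.0478 FPKM in WT and 0.0169 FPKM in GOF. Of these Cox6a2 overlaps Itgad on the other strand, so its counts are uncertain. The general isoforms were Cox4i1 (72.0 ± 19.0 FPKM in WT, n = 3, and 73.2 ± 11.9 in GOF, n = 4, as mean ± SD), Cox6a1 (90.6 ± 12.3 and 103 ± 16.1), Cox7b (43.8 ± 11.02 and 45.1 ± 4.39) and Cox8a (188 ± 17.9 and 185 ± 20.9). None of these 4 passed the test, with log2 fold changes of 0.02, 0.18, 0.04 and -0.02 whose SE were 0.19, 0.14, 0.16 and 0.11. After removal of a gene length trend Cox8a was called lower, at -0.32 (limma adjusted p = 0.0117, with a range of 0.0117 to 0.977 over its alternatives). Of 22 assembly factors of complex IV, 4 rose (18.2%, against 16.8% of all genes tested) and none fell (against 14.5%). Their median log2 fold change was 0.25. Cmc1, which holds an early assembly intermediate, was at 9.91, 8.80 and 10.1 FPKM in WT and 20.9, 15.8, 19.1 and 20.04 FPKM in GOF (log2 fold change 0.98, SE 0.15, edgeR adjusted p = 0.00124). Cox10 and Cox15, which make heme A, rose by 0.56 and 0.69 (edgeR adjusted p = 0.00458 and 0.00558), and Pet100, named after its values were seen, by 0.73 (edgeR adjusted p = 0.0453). The 3 leading factors had no overlap between groups.

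In complex V the 5 genes of the catalytic head (Atp5a1, Atp5b, Atp5c1, Atp5d and Atp5e) did not pass the test, with a median log2 fold change of -0.07 and a range of -0.29 to 0.30. Atp5a1, the alpha subunit and the member of this complex with the highest level, was at 110, 92.7 and 120 FPKM in WT and 119, 107, 104 and 103 FPKM in GOF, which overlap. The 4 peripheral stalk genes had a median of -0.02. Atp5k, the e subunit, which sits at the membrane where ATP synthases pair (mm10 chromosome 5, 108433244 to 108434448), was at 21.9, 12.4 and 13.8 FPKM in WT and 26.0, 25.2, 31.9 and 34.9 FPKM in GOF. All GOF libraries were higher than all WT libraries. It rose by 0.88 (SE 0.22, edgeR adjusted p = 0.0156), the largest rise of any tested member, and the call was lost without WT replicate 3 (adjusted p over all alternatives 0.000965 to 0.0739). Atp5sl (chromosome 7, 25619414 to 25625551) is grouped here by name only, since it is known as an assembly factor of complex I. Its values were 18.8, 15.5 and 17.6 FPKM in WT and 12.6, 10.7, 13.6 and 12.3 FPKM in GOF, with no overlap. It fell by 0.49 (SE 0.11, edgeR adjusted p = 0.00961) and kept this call without each library in turn. Without GOF replicates 2 and 4 together it lost the call, and its adjusted p ran from 0.000866 to 0.0645 over the alternatives.

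The c-ring, the rotor that protons turn, can be made from 3 genes with one mature product. Atp5g3 gave 95.3% ± 1.12 (SD, n = 3) of their summed FPKM in WT and 94.1% ± 1.55 (SD, n = 4) in GOF. It was at 33.4, 24.7 and 29.6 FPKM in WT and 30.0, 30.6, 37.6 and 36.8 FPKM in GOF. Atp5g1 was at 0.699 ± 0.223 FPKM (SD, n = 3) in WT and 0.940 ± 0.189 FPKM (SD, n = 4) in GOF, and Atp5g2 at 0.729 ± 0.160 and 1.16 ± 0.517 FPKM. The groups overlapped for all 3 genes, and their log2 fold changes of 0.21, 0.43 and 0.67 did not pass the test. Over all libraries Atp5g3, Atp5g1 and Atp5g2 held 9928, 872 and 222 counts. The share above rests on lengths of 2931, 9797 and 2111 bases. That of Atp5g1 is longer than its locus (chromosome 11, 96068852 to 96075670). Atp5g1 and Atp5g2 also have near-identical copies elsewhere in the genome, so the share is uncertain. Of the 3 tested assembly factors of the ATP synthase none passed, in edgeR, with a median log2 fold change of -0.08. The 5 genes known as subunits or regulators of the complexes but outside the name rule (Ndufab1, Cyc1, Usmg5, 2010107E04Rik and Atpif1) lay between -0.14 and 0.07, and none passed.

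Cycs, cytochrome c, was at 1.14, 0.942 and 1.04 FPKM in WT and 1.88, 1.42, 1.34 and 1.97 FPKM in GOF. Its groups did not overlap, and its log2 fold change of 0.67 (SE 0.23) did not pass the test (edgeR adjusted p = 0.0539). Most counts of this sequence stood on another row. Cycs held 554 counts over the 7 libraries, while Gm10053, a row whose sequence covers at least 80% of the Cycs coding sequence at 95% identity or more, held 7304. With these counts summed, the log2 fold change was 0.27 (SE 0.13, edgeR adjusted p = 0.148), and over all alternatives the adjusted p of Cycs ran from 0.0307 to 0.238.

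Over all members, 21 had such a copy in GENCODE M21, 40 copies in all, and 9 members had at least 1 copy among the deposited rows. Atp5h, a stalk subunit, held 7424 counts against 9677 in Gm10250, and Ndufs5, a complex I subunit, 1279 against 823 in BC002163. Among the members that rose, Cox5b held 5324 counts against 2860 in Gm11273, and Uqcr10 5109 against 2256 in 4930481A15Rik. With copies summed Cox5b differed by 0.65 on the log2 scale (edgeR adjusted p = 0.00703) and Uqcr10 by 0.50 (edgeR adjusted p = 0.0475). Atp5k had 35 counts in a copy against 2130 of its own. The same numbers of members, 12 and 2, rose and fell with the counts of all copies summed. How reads that fit more than 1 row were counted is unknown here, so levels of members with a copy are uncertain, and 5 of the 10 tested members with the lowest level had one. Reads of overlapping genes can also be mixed, since the strand setting is not given in the sources used here. Ndufb2 lies with Gm42420 on its own strand and with Braf and Gm16272 on the other. On their own strand, Ndufb9 lies with Gm49356 and Ndufa10 with Mir6900. On the other strand, Ndufa3 lies with Tfpt, Cox6c with Vps13b, and Ndufv2 with AC119957.1 and Gm23264.

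**Figure D3:**
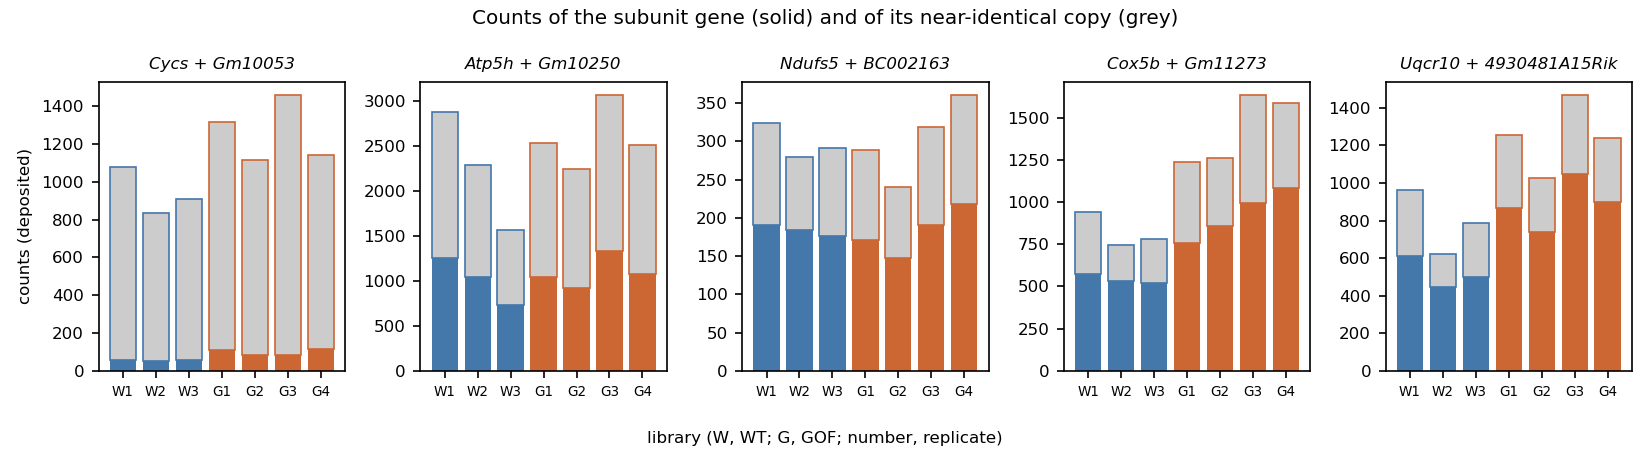
Deposited counts (vertical axis, from 0) in each of the 7 libraries for 5 subunit genes (solid) and their near-identical copies (grey, stacked). For Cycs and Atp5h the copy holds more counts than the gene (7304 against 554 and 9677 against 7424 over all libraries).

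Members varied together between libraries of the same genotype. WT replicate 1 was the highest of the WT libraries for 62 of 77 tested members and WT replicate 2 the lowest for 60. Among the GOF libraries, replicate 2 was the lowest for 54. Over all genes tested, WT replicate 2 was the lowest of its group for 34.1% and GOF replicate 2 for 30.6%. As a median over the members, the level in log2 differed from the mean over the 7 libraries by 0.09, -0.26 and -0.09 in WT replicates 1 to 3 and by 0.07, -0.08, 0.16 and 0.11 in GOF replicates 1 to 4. WT replicate 1 thus lay above GOF replicates 1 and 2, and the libraries of the groups overlapped. For all genes tested the same medians ran from 0.00 to 0.03. Summed FPKM over each of the complexes overlapped between the groups as well. Complex I summed to 1176, 867 and 980.1 FPKM in WT and 1120.0, 977, 1196 and 1153 FPKM in GOF, and complex IV to 1274, 976 and 1087 FPKM in WT and 1094, 908, 1186 and 1113 FPKM in GOF. Without WT replicate 1, 21 members rose and 2 fell, and without WT replicate 3, 3 rose and 2 fell. Without WT replicate 2, 6 rose and 3 fell. Of all genes tested without WT replicate 1, 2 and 3 in turn, 15.3%, 16.0% and 12.8% were higher. In the same fits 13.1%, 12.8% and 10.8% were lower. Without GOF replicate 1, 5 rose and 2 fell, and without GOF replicate 2, 16 rose and 2 fell. Without GOF replicate 3, 5 rose and 3 fell, and without GOF replicate 4, 4 rose and 2 fell. Of all genes tested in these GOF fits, in the same order, 13.01%, 15.91%, 13.28% and 14.04% were higher. The shares that were lower were 11.07%, 14.59%, 11.44% and 12.14%.

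**Figure D4:**
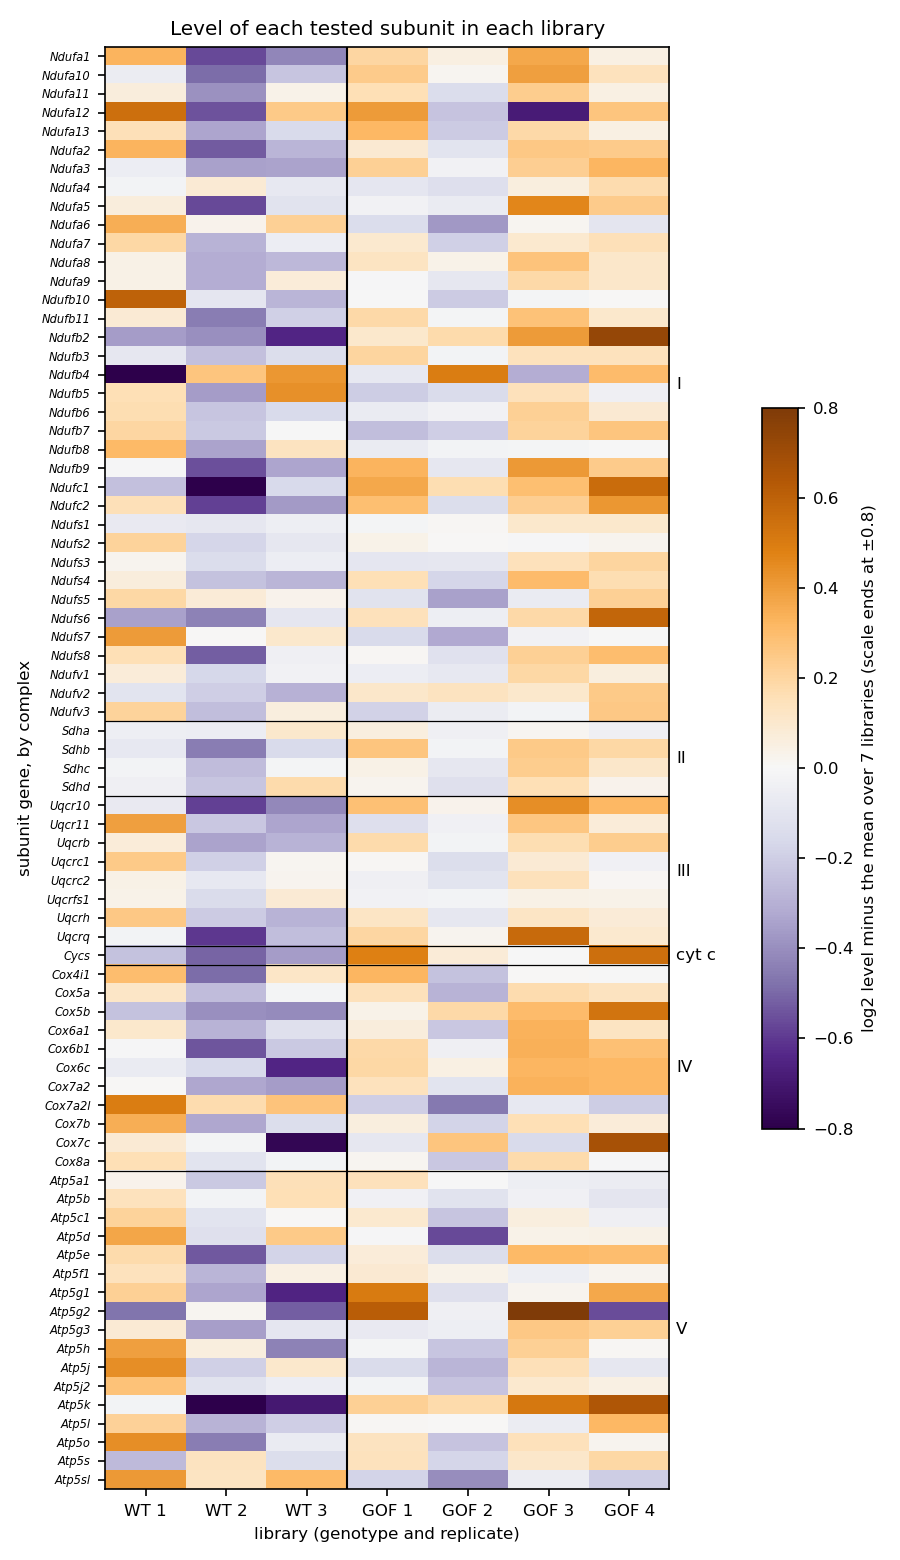
Log2 level of each of the 77 tested members in each library minus its mean over the 7 libraries (color, from -0.8 to 0.8, with values beyond these shown at the ends), with rows by the complex of their name and columns by library. WT replicate 2 is the lowest WT library in 60 rows and GOF replicate 2 the lowest GOF library in 54.

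Members are short genes. Their median length behind the FPKM was 2409 bases against 5032 bases for all genes tested. The 39 members up to that median had a median log2 fold change of 0.24 and the 38 longer ones 0.02, while all genes of the same length ranges had medians of 0.12 and -0.02. Of the shorter members 6 rose (15.4%) and 1 fell (2.56%), while of all genes in that range 20.6% were higher and 8.38% lower. Of the longer members 6 rose (15.8%) and 1 fell (2.63%), while of all genes in that range 15.8% were higher and 16.1% lower. With a length trend removed from each library and the fit made in limma, 11 members rose and 5 fell, with a median log2 fold change of 0.05, and the calls of Cox6b1 and Ndufb9 were lost. The part of length in the result was not tested further.

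The partners of these subunits that mitochondrial DNA encodes, which join them in complexes I, III, IV and V, number 13. Of these 7 rose (53.8%) and none fell, with a median log2 fold change of 0.37. Of all genes tested 16.8% were higher and 14.5% lower. mt-Nd1, a membrane subunit of complex I, was at 3637, 2535 and 3209 FPKM in WT and 5566, 4281, 5733 and 4932 FPKM in GOF, with no overlap (log2 fold change 0.71, SE 0.15, edgeR adjusted p = 0.00672). mt-Nd2 and mt-Nd4l, also of complex I, rose by 0.68 and 0.45 (edgeR adjusted p = 0.0101 and 0.00890). The other 4 that rose were mt-Nd3, mt-Co2, mt-Co3 and mt-Atp8, while mt-Co1, the catalytic subunit of complex IV, had a log2 fold change of 0.26 that did not pass (edgeR adjusted p = 0.0624). mt-Nd5 had the lowest value, -0.12, and did not pass. Without GOF replicates 1 and 3 none of the 13 passed in edgeR (4 had an unadjusted p under 0.05), with a median log2 fold change of 0.29, and mt-Nd1 was at 0.55 (adjusted p = 0.0693). In that fit 8.53% of all genes tested were higher and 8.34% lower. Without 1 library in turn mt-Nd1, mt-Nd2, mt-Nd4l and mt-Co2 kept their calls. Those of mt-Nd3 and mt-Co3 were lost without GOF replicate 1, 3 or 4 or WT replicate 2 or 3, and that of mt-Atp8 without GOF replicate 1, 3 or 4 or WT replicate 3. Counts of the 13 genes per count of the 85 nuclear-encoded members were 7.44, 7.95 and 7.76 in WT and 9.87, 9.64, 9.53 and 9.33 in GOF. The means were 7.72 ± 0.258 (SD, n = 3) and 9.59 ± 0.226 (SD, n = 4), and the groups did not overlap.

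**Figure D5:**
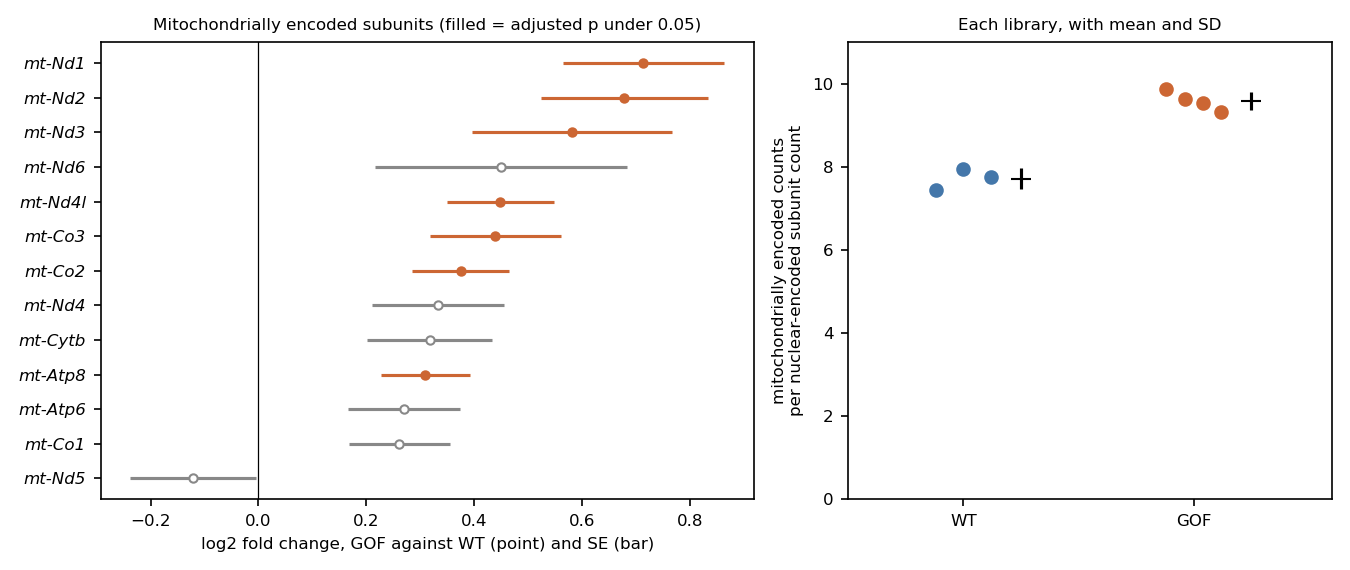
Left, fitted log2 fold change of GOF against WT with its standard error for the 13 mitochondrially encoded subunits, filled where adjusted p was under 0.05 (edgeR). Right, their counts per count of nuclear-encoded subunits in each library with mean and SD, at 7.44 to 7.95 in WT and 9.33 to 9.87 in GOF.

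Genes that serve the chain did not move in one direction. Among 12 tested regulators of mitochondrial genes 1 rose and 3 fell. Esrra, a nuclear receptor that activates respiratory genes, was at 6.60, 6.14 and 6.38 FPKM in WT and 8.23, 9.05, 9.73 and 10.7 FPKM in GOF (log2 fold change 0.56, SE 0.12, edgeR adjusted p = 0.00639). Yy1 fell by 0.34 and Tfb2m, a mitochondrial transcription factor, by 0.47 on the log2 scale (edgeR adjusted p = 0.0230 and 0.0403), as did Tefm, the mitochondrial elongation factor, by 0.66 (edgeR adjusted p = 0.0490, named after its values were seen). Of the 13 tested assembly factors of complex I, 15.4% rose (against 16.8% of all genes tested) and none fell (against 14.5%). Nubpl and Ecsit rose by 1.16 and 0.43 (edgeR adjusted p = 0.0239 and 0.0277). Of 9 tested genes of coenzyme Q synthesis none fell and 1 rose (11.1%, against 16.8% of all genes tested). This was Coq7, a hydroxylase of the pathway, at 0.566, 0.572 and 0.578 FPKM in WT and 1.75, 1.31, 1.93 and 1.64 FPKM in GOF (log2 fold change 1.53, SE 0.22, edgeR adjusted p = 0.000928).

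Of 16 genes of the TCA cycle and pyruvate dehydrogenase 3 rose (18.75%) and 1 fell (6.25%), against 16.8% and 14.5% of all genes tested. The 2 subunits of the E1 part of pyruvate dehydrogenase went opposite ways. Pdha1, the alpha subunit, was at 50.9, 52.5 and 53.6 FPKM in WT and 44.2, 43.2, 42.5 and 42.4 FPKM in GOF and fell by 0.28 (edgeR adjusted p = 0.0132). Pdhb, the beta subunit, was at 57.5, 49.6 and 53.2 FPKM in WT and 67.0, 62.8, 66.1 and 68.0 FPKM in GOF and rose by 0.30 (edgeR adjusted p = 0.0260). Suclg1, of succinyl-CoA ligase, rose by 0.49 (edgeR adjusted p = 0.0111), and Idh3a, named after its values were seen, by 0.31 (edgeR adjusted p = 0.0498). Among the 7 tested carriers of the inner and outer membrane, Ucp2, an inner membrane carrier of the uncoupling protein family, was at 43.1, 39.3 and 44.2 FPKM in WT and 79.8, 67.9, 86.3 and 76.9 FPKM in GOF and rose by 0.88 (SE 0.10, edgeR adjusted p = 0.000260). Slc25a3, which brings in the phosphate that the ATP synthase uses, was at 72.3, 71.0 and 64.7 FPKM in WT and 49.5, 48.1, 49.4 and 52.2 FPKM in GOF and fell by 0.48 (SE 0.08, edgeR adjusted p = 0.00164). Of the tested carriers 14.3% rose and 14.3% fell. Of 9 genes of peroxide and superoxide defence 3 rose (33.3%) and 2 fell (22.2%). Sod2, the mitochondrial superoxide dismutase, fell by 0.47, and Txnrd2 and Prdx5 rose by 0.82 and 0.57 (edgeR adjusted p = 0.00454, 0.0155 and 0.0233). Gpx1 (0.42) and Cat (-0.25), named after their values were seen, were the others. For each of Pdha1, Pdhb, Ucp2, Slc25a3 and Sod2 the groups did not overlap.

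Calls in these lists changed with the libraries in the fit. Of the 34 genes named or counted above as having risen or fallen among the assembly factors, the mitochondrially encoded subunits, the regulators, the TCA cycle, coenzyme Q, carrier and defence genes, 11 passed the test without GOF replicates 1 and 3, and all 34 kept their direction. Calls over all genes tested were fewer in that fit as well, at 8.53% higher and 8.34% lower, against 16.8% and 14.5% with all libraries. The 11 were Nubpl, Sdhaf1, Uqcc2, Uqcc3, Cmc1, Cox10, Coq7, Esrra, Slc25a3, Ucp2 and Sod2. None of the 16 genes of the TCA cycle and pyruvate dehydrogenase passed in that edgeR fit (3 had an unadjusted p under 0.05), where Pdha1 was at -0.30 and Pdhb at 0.28. Without each library in turn 17 of the 34 kept their calls, among them Sdhaf1, Uqcc2, Cmc1, Cox10, Cox15, Coq7, Esrra, Suclg1, Pdha1, Slc25a3, Ucp2, Sod2 and Txnrd2. Of the others, Uqcc3 lost its call without WT replicate 1 or 3, Prdx5 without GOF replicate 3 or 4 or WT replicate 3, Yy1 without GOF replicate 1, 3 or 4 or WT replicate 3, Lyrm7 without GOF or WT replicate 1 or 3, and Nubpl without GOF replicate 2 or 4 or WT replicate 1 or 2. Ecsit, Pet100 and Pdhb lost theirs without GOF replicate 1, 3 or 4 or WT replicate 2 or 3, and Sdhaf4 and Gpx1 without GOF replicate 1, 3 or 4 or WT replicate 1 or 2. Idh3a, Tfb2m, Cat and Tefm each lost theirs without any 1 of 6 libraries.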

How the data were processed

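RNA from 7 mice (3 WT, 4 GOF) was sequenced as paired-end TruSeq libraries, per the labels' protocols. The 1 table the authors deposited gives raw counts and FPKM for each library. Per the submitters' processing notes, HISAT2 2.0.4, Cufflinks 2.1.1, Cuffdiff and mm10 were used. How reads were counted, and with which strand setting, is not given in the sources used here. Each FPKM as deposited equals the count over a fixed gene length and the column total within 0.1% for 100% of values, so it carries no further scaling. For some members, among them Atp5g1, Cox5b and Cox6b2, that length is longer than the locus, so levels compared between genes are uncertain. FPKM was recomputed here on TMM-scaled totals (factors 0.961 to 1.03).

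Counts were tested with edgeR 4.0.16 (R 4.3.3, filterByExpr, TMM, quasi-likelihood, all 7 libraries, no covariate). P-values were adjusted by Benjamini-Hochberg over 12668 genes, threshold 0.05. DESeq2 1.42.0, limma 3.58.1 (log2 of FPKM plus 1 or 0.5), other scalings and filters, left-out libraries and a replicate block (without GOF replicate 4) were alternatives.

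Named members are, per complex, up to 6 past the threshold with the smallest p, those against the main direction, the highest level, all of complex II, cytochrome c and the isoform sets, and up to 3 per other list. Members, lists and rules were chosen with earlier results of these data known. Groups came from sample titles. Arithmetic used Python 3.11.15.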

Additional observations from a re-analysis of the deposited data

How the results depend on the processing

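No called member changed direction under any of the 21 alternatives. Of 605 values of named members, 490 kept direction and side of the threshold, 60 lost and 20 gained a call, and 35 changed sign, all of genes that did not pass. The number of members that rose was 12, and 19 with total counts only, 20 in limma on log2(FPKM + 1), 20 on log2(FPKM + 0.5), 2 without GOF replicates 1 and 3 together, and 3 to 21 when 1 library was left out. Of all genes tested, 16.8% were higher, and 19.95% with total counts only, 20.6% and 20.8% in limma on these scales, and 8.53% without GOF replicates 1 and 3 together. The number of members that fell was 2, and 5 after removal of a length trend, 4 with the replicate block and 1 without GOF replicates 2 and 4 together. Over all genes 2130 rose and 1838 fell (53.7% of calls higher). With total counts only the split was 2527 and 1428 (63.9%), and in limma on log2(FPKM + 1) 2606 and 1393 (65.2%). After quantile normalization it was turned, at 1870 and 2120 (46.9%). It was 1093 and 1069 with a mean FPKM of at least 5, and 1074 and 1050 without GOF replicates 1 and 3 together.

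The replicate block gave 9 higher and 4 lower members, 1646 and 1549 of all genes. Same-numbered libraries correlated at 0.026, 0.147 and -0.041, so the numbers were not taken to pair mice. Not every library correlated best with its own number. These correlations are over all genes tested. Among the 77 tested members replicate 2 was the lowest of its group for 60 in WT and 54 in GOF. Whether the numbers pair mice is not given in the labels.

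Sign changes, as log2 fold changes, were these. Sdha was at 0.001 in DESeq2 and with RLE factors, 0.0024 after quantile normalization, 0.073 with total counts, 0.0727 and 0.0734 in limma on log2(FPKM + 1) and log2(FPKM + 0.5), 0.0453 with a mean FPKM of at least 5, 0.0068 with no filter on low counts, 0.0047 with the replicate block, 0.0099 without mitochondrially encoded genes and 0.0478 without GOF replicates 2 and 4. Cox8a was at 0.0583 with total counts, 0.0543 and 0.0544 in limma on the same scales, 0.0309 with a mean FPKM of at least 5 and 0.0956 without GOF replicates 2 and 4. After removal of a length trend Cox4i1 was at -0.0125, Cox7b at -0.0141 and Sdhd at -0.0616. In that setting Cox8a kept its sign, from -0.0193 to -0.319, and gained a call. Without GOF replicates 1 and 3 Atp5a1 was at -0.0409, Cox4i1 at -0.1378, Cox7b at -0.0476 and Sdhd at -0.0342. Without 1 library in turn the ranges were -0.0851 to 0.0959 for Atp5a1, -0.1783 to 0.1857 for Cox4i1, -0.0954 to 0.2608 for Cox7b, -0.0816 to 0.0548 for Cox8a, -0.0343 to 0.0444 for Sdha and -0.0506 to 0.1535 for Sdhd. The causes were not tested.

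Depth limits members of low level, such as Ndufb4 (193 counts in all) and Atp5g2 (222). The smallest p of an exact permutation test here is 0.0571.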
